A study of Homo sapiens with 9 samples.

Results

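The genes described here are 10 microtubule genes, namely 6 that encode microtubule-associated proteins (*MAP2*, *MAPT*, *MAP4*, *MAP1A*, *MAP1B* and *MAP7*), the tubulin-binding gene *STMN1*, and 3 beta-tubulins (*TUBB3*, *TUBB2B* and *TUBB6*). They were taken as a list of symbols, chosen with earlier results of these data known, and matched to Ensembl identifiers in a table of 60660 identifiers. All 10 were among the 17794 genes with enough counts to be tested. The series measured RNA by paired-end sequencing in OVCAR3, a human epithelial ovarian cancer cell line, to ask which genes change when *CTCFL* is raised or lowered. *CTCFL*, also called BORIS, encodes a DNA-binding protein related to CTCF that is normally made in the testis and is switched on in some tumours. There were 3 conditions with 3 biological replicates each, and every replicate was a pool of 3 technical replicates.

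CTCFL-OE cells were transiently transfected, with Xfect reagent, with 2 µg of the plasmid pCpGfree-vitroHBORIS, which carries the open reading frame for the 663 amino acid CTCFL protein, and were collected 48 h after transfection. Control cells received the plasmid pCpGfree-vitroHLacZ according to the study's methods, while the sample labels give their *CTCFL* treatment as none. CTCFL-KD cells had *CTCFL* lowered with siRNAs according to the series record. The methods take the CTCFL-KD RNA from knockdown experiments published earlier, whereas RNA of Control and CTCFL-OE was extracted for this study. No separate control for the siRNA is in the series, so a difference between CTCFL-KD and Control holds both the knockdown and any difference between experiments, and these cannot be told apart. Overexpression was transient, and the share of cells that took up the plasmid is not given.

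Microtubules are hollow polymers of alpha- and beta-tubulin that carry cargo, shape cells and build the mitotic spindle. Microtubule-associated proteins bind along the polymer and stabilise or space it, while stathmin (*STMN1*) binds free tubulin dimers and favours disassembly. MAP2, tau (*MAPT*), MAP1A, MAP1B, TUBB3 and TUBB2B are best known from neurons, but carcinoma cells also make some of them, and class III beta-tubulin (*TUBB3*) has been studied in ovarian cancer for its link to the response to taxanes, drugs that bind microtubules.

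The libraries held 19006695, 24490080 and 19044832 counts in Control replicates 1, 2 and 3, 20178085, 18104845 and 17249451 in those of CTCFL-OE, and 14332622, 16605777 and 17995196 in those of CTCFL-KD. Levels are given as CPM, which are counts scaled to the library total, here after correction by the trimmed mean of M-values (TMM), with the mean ± SD of 3 libraries where groups are summarised. *CTCFL* itself had 6, 9 and 10 counts in Control replicates 1 to 3, 36, 34 and 72 in those with overexpression and 0, 1 and 0 in those with knockdown. All 3 CTCFL-OE libraries were above, and all 3 CTCFL-KD libraries below, every Control library, so the labels and the *CTCFL* counts point the same way. In CTCFL-OE *CTCFL* rose 6.64-fold (log2 fold change 2.73, SE 0.48, n = 3 a group, adjusted p = 0.0287), although the call was lost without Control replicate 1 (adjusted p = 0.169), 2 (0.176) or 3 (0.125), and over all alternatives adjusted p ran from 1.83e-08 to 0.176. The log2 fold change was 2.13 without CTCFL-OE replicate 3, which had the most *CTCFL* counts. Summed over the group, Control had 25 *CTCFL* counts against 1 in CTCFL-KD, a ratio per total counts of 19.6 with an exact 95% interval of 3.20 to 803 that covers counting error only. In edgeR *CTCFL* passed as lower in CTCFL-KD than in Control (adjusted p = 0.0162), a call lost without CTCFL-KD replicate 3 (0.0551), in a range over all alternatives from 0.000198 to 0.0551. Between CTCFL-OE and CTCFL-KD the sums were 142 against 1, a ratio of 125 with an exact 95% interval of 22.1 to 4977. *CTCF*, the paralog of *CTCFL*, was at 80.7 ± 4.03 CPM in Control, 70.3 ± 6.80 after overexpression and 60.4 ± 5.36 after knockdown, and its adjusted p was 0.532 in CTCFL-OE and 0.0566 in CTCFL-KD.

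CTCFL-KD replicate 1 stood apart from the other CTCFL-KD libraries. It had the fewest counts of the 9 libraries, and its TMM factor was 0.775 against 1.01 and 1.02 in the other CTCFL-KD libraries and 0.945 to 1.09 in the Control and CTCFL-OE libraries. Against the other CTCFL-KD libraries its levels were higher for short transcripts (median log2 difference 0.87 in the shortest 5th of genes by length) and lower for long ones (-0.70 in the longest 5th, from 6343 bases up). *MAP2*, *MAPT*, *MAP4*, *MAP1A* and *MAP1B* have reference transcripts in that longest class. Their log2 fold changes in CTCFL-KD against Control are therefore also given without this library. Mitochondrial genes took 6.16% to 6.52% of counts in Control, 7.40% to 14.9% after overexpression and 7.80% to 11.8% after knockdown, and the part of this difference in the results was not tested.

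Differences were tested in edgeR (quasi-likelihood test), with p-values adjusted by the Benjamini-Hochberg method over all 17794 genes, and a gene passed at an adjusted p under 0.1 in CTCFL-OE against Control and under 0.05 in CTCFL-KD against Control and CTCFL-KD against CTCFL-OE, the first 2 thresholds being the study's own. A passing gene whose log2 fold change was beyond 1 in either direction is called differentially expressed. The comparisons of CTCFL-OE and of CTCFL-KD with Control share the 3 Control libraries, and CTCFL-KD against CTCFL-OE compares these 2 groups directly. Since the 10 genes were chosen with earlier results of these data known, the shares of all genes tested are given beside their counts as description only. They do not test an excess. In CTCFL-OE 3 of the 10 genes fell (*MAP2*, *MAP1B* and *TUBB3*) and 1 rose (*MAP1A*), beside 1.16% of all genes tested that passed lower and 1.99% that passed higher. The 3 that fell were differentially expressed, beside 0.702% of all genes tested in that direction and 1.37% in the other. In CTCFL-KD 6 of the 10 fell (*MAP2*, *MAP1B*, *MAP4*, *TUBB3*, *TUBB2B* and *TUBB6*), beside 16.8% of all genes tested that passed lower and 21.4% that passed higher. Of these, 4 were differentially expressed (*MAP2*, *MAP1B*, *MAP4* and *TUBB3*), beside 7.94% of all genes tested in that direction and 15.3% in the other. By edgeR 0 of the 10 passed higher in CTCFL-KD, while at an unadjusted p under 0.05 there were 2 higher (*MAP1A* and *STMN1*), and DESeq2 on all 9 libraries called 1 of them, *STMN1*. Against CTCFL-OE, CTCFL-KD was lower for 6 (*MAP2*, *MAP1B*, *MAP4*, *TUBB3*, *TUBB2B* and *TUBB6*) and higher for 1 (*STMN1*), beside 11.5% of all genes tested that passed lower and 15.3% that passed higher. The median log2 fold change of the 10 was -0.17 after overexpression, -0.94 after knockdown and -0.80 in CTCFL-KD against CTCFL-OE, where the medians of all genes tested were -0.01, 0.08 and 0.04. Groups without overlap were common among all genes tested. In CTCFL-OE 20.8% lay wholly below Control and 16.3% wholly above, beside 4 and 2 of the 10. In CTCFL-KD these were 27.6% and 28.7%, beside 7 and 2 of the 10. Against CTCFL-OE 19.5% lay wholly lower in CTCFL-KD and 20.3% wholly higher, beside 9 and 1 of the 10.

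**Figure D1:**
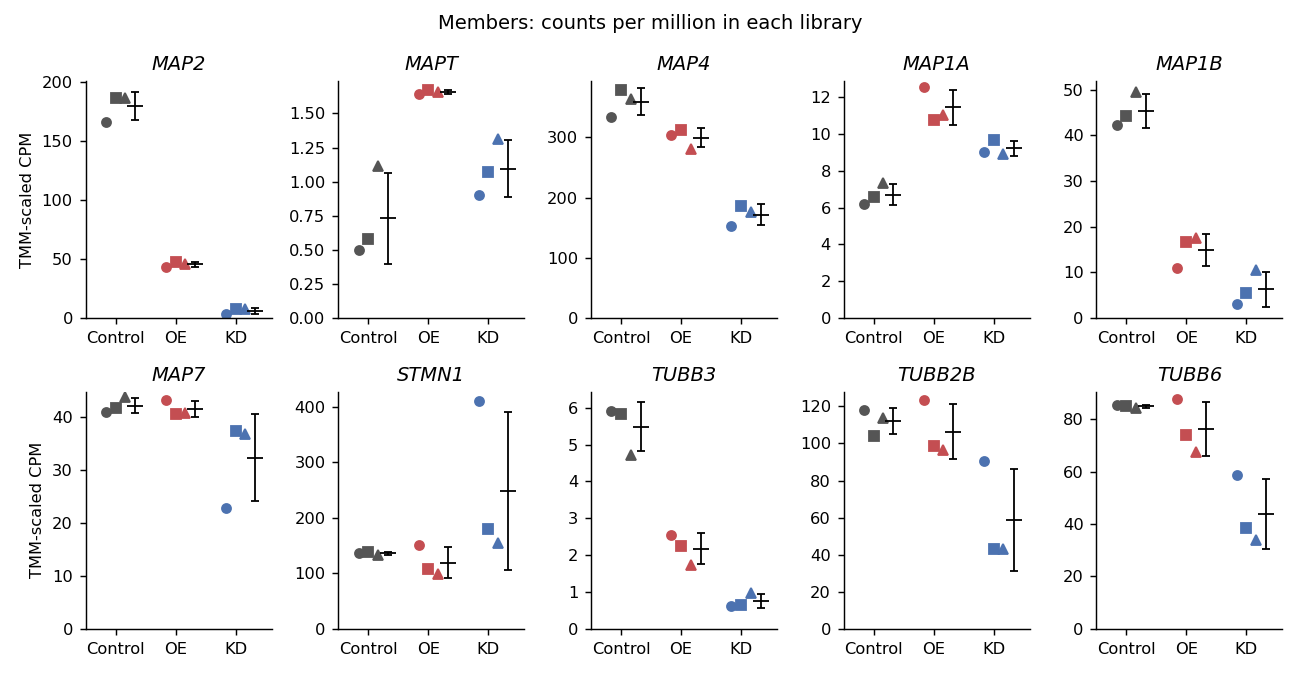
Level of each of the 10 genes in each of the 9 libraries, in TMM-scaled CPM on a linear axis from 0, for Control (grey), CTCFL-OE (OE, red) and CTCFL-KD (KD, blue), where circle, square and triangle are replicates 1, 2 and 3 and the black bar is the mean ± SD of 3 libraries. *MAP2*, *MAP1B* and *TUBB3* step down from Control to CTCFL-OE to CTCFL-KD with no overlap between groups, while *STMN1* reaches 411 CPM in 1 CTCFL-KD library. The shares of all genes tested without overlap are given in the text.

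*MAP2* (ENSG00000078018.20, GRCh38 chr2:209424047-209734147, plus strand) encodes a protein that binds along dendritic microtubules and spaces them. Its reads numbered 3323, 4800 and 3683 counts in Control replicates 1 to 3, 955, 915 and 744 in those with overexpression and 39, 127 and 144 in those with knockdown. Scaled to library size these were 166, 187 and 187 CPM for Control replicates 1 to 3, 43.6, 47.8 and 45.7 for those of CTCFL-OE and 3.52, 7.55 and 7.89 for those of CTCFL-KD. The groups did not overlap, since every CTCFL-OE library lay below every Control library and every CTCFL-KD library lay below every CTCFL-OE library. *MAP2* fell 3.94-fold in CTCFL-OE (log2 fold change -1.98, SE 0.25, n = 3 a group, adjusted p = 0.00629) and 28.1-fold in CTCFL-KD (log2 fold change -4.81, SE 0.29, n = 3 a group, adjusted p = 2.59e-06) in edgeR's quasi-likelihood test, Benjamini-Hochberg adjusted. CTCFL-KD was also 7.13-fold below CTCFL-OE (log2 fold change -2.83, SE 0.27, n = 3 a group, adjusted p = 4.64e-05). *MAP2* was the 1 member of the 10 whose CTCFL-OE call held whichever library was left out (adjusted p at most 0.0482). Without CTCFL-KD replicate 1, which had the lowest level, the log2 fold change in CTCFL-KD was -4.54 (adjusted p = 4.05e-08, in a range over all alternatives from 7.20e-72 to 0.000242). In bulk RNA, fewer cells with a transcript and less of it in each cell cannot be told apart, and this holds for every gene below.

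The promoter table used here (RefSeq, GRCh38.p14, windows of 250 bases before to 50 after a start site) held 21 windows for 9 of the 10 genes, with *MAPT* having none. The *MAP2* window lay at an internal start site, 155285 bases downstream of the gene's canonical start, and is shown because *MAP2* changed most. Of this and the other windows the longest stretch before the start site that lies outside annotated exons is printed. Letters were searched for in whole windows.
MAP2 chr2:209579082-209579314, plus strand: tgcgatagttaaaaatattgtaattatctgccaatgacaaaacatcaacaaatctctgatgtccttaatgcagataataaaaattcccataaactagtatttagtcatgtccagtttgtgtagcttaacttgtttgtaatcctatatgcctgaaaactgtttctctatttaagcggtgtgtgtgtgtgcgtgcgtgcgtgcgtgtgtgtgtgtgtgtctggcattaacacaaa

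*MAPT* (ENSG00000186868.16, GRCh38 chr17:45894527-46028334, plus strand) encodes tau, which stabilises axonal microtubules. It was barely detected, with 10, 15 and 22 counts in Control replicates 1 to 3, 36, 32 and 27 in those with overexpression and 10, 18 and 24 in those with knockdown. In scaled units these were 0.501, 0.583 and 1.11 CPM for Control replicates 1 to 3, 1.64, 1.67 and 1.66 for those of CTCFL-OE and 0.902, 1.07 and 1.31 for those of CTCFL-KD. All 3 CTCFL-OE libraries were above all 3 Control libraries, and the CTCFL-KD libraries overlapped Control, since Control replicate 3 was above CTCFL-KD replicates 1 and 2. Its log2 fold change in CTCFL-OE came to 1.18 (SE 0.32, n = 3 a group) and its adjusted p, 0.110, was over the 0.1 threshold. This call changed with the processing, since adjusted p was 0.0811 without CTCFL-OE replicate 1 and 0.0305 without CTCFL-KD replicate 1, and 8 of 11 other settings also put *MAPT* past the threshold, in a range over all alternatives from 0.0305 to 0.382, the highest being without Control replicate 1. In CTCFL-KD the log2 fold change was 0.61 (SE 0.34, n = 3 a group, adjusted p = 0.183) and against CTCFL-OE it was -0.57 (SE 0.32, n = 3 a group, adjusted p = 0.206). These were, without CTCFL-KD replicate 1, 0.72 (adjusted p = 0.111, in a range over all alternatives from 0.0577 to 0.462) and -0.47 (adjusted p = 0.278, in a range from 0.119 to 0.408), and with other libraries left out the value against Control ran from 0.40 to 1.01. *MAPT-AS1*, an RNA read from the opposite strand at the same locus, had 0 to 8 counts in each library (0, 8 and 8 counts in Control replicates 1 to 3, 4, 8 and 5 in those with overexpression and 6, 4 and 3 in those with knockdown) and was not tested.

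*MAP4* (ENSG00000047849.21, GRCh38 chr3:47850690-48089272, minus strand) encodes the main microtubule stabiliser of cells outside the nervous system. It was abundant, with 6683, 9770 and 7187 counts in Control replicates 1 to 3, 6685, 5981 and 4581 in those with overexpression and 1692, 3141 and 3229 in those with knockdown. Its scaled levels were 335, 379.6 and 364 CPM for Control replicates 1 to 3, 305, 313 and 282 for those of CTCFL-OE and 153, 187 and 177 for those of CTCFL-KD. Every CTCFL-KD library was below every Control and CTCFL-OE library, and each CTCFL-OE library was below each Control library. *MAP4* fell 2.09-fold in CTCFL-KD (log2 fold change -1.06, SE 0.17, n = 3 a group, adjusted p = 0.000846) by edgeR's quasi-likelihood test and was also lower than in CTCFL-OE (log2 fold change -0.80, SE 0.17, n = 3 a group, adjusted p = 0.00611). In CTCFL-OE the difference from Control did not pass (log2 fold change -0.26, SE 0.17, n = 3 a group, adjusted p = 0.444). Without CTCFL-KD replicate 1 the log2 fold change against Control was -0.98 (adjusted p = 0.000126, in a range over all alternatives from 5.49e-11 to 0.00732), which is within the limit of 1 for differential expression.

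*MAP1A* (ENSG00000166963.13, GRCh38 chr15:43510958-43531620, plus strand) encodes a microtubule-binding protein of mature neurons that is cleaved into a heavy and a light chain. Reads assigned to it were 124, 169 and 145 counts in Control replicates 1 to 3, 275, 206 and 179 in those with overexpression and 100, 163 and 163 in those with knockdown. Its scaled levels were 6.21, 6.57 and 7.34 CPM for Control replicates 1 to 3, 12.5, 10.8 and 11.0 for those of CTCFL-OE and 9.02, 9.69 and 8.93 for those of CTCFL-KD. Both altered groups lay above Control with no overlap, and every CTCFL-KD library was below every CTCFL-OE library. In CTCFL-OE *MAP1A* rose 1.71-fold (log2 fold change 0.77, SE 0.17, n = 3 a group, adjusted p = 0.0550), which made it the 1 gene of the 10 to rise there. In CTCFL-KD the log2 fold change of 0.46 (SE 0.17, n = 3 a group) had an adjusted p of 0.0508, just over the 0.05 threshold. That call was gained without CTCFL-OE replicate 1 (adjusted p = 0.0380) or without CTCFL-KD replicate 1 (0.0188, with a log2 fold change of 0.48). It was also gained in 4 of 11 other settings, in a range over all alternatives from 0.0188 to 0.356. The rise in CTCFL-OE lost its call without Control replicate 1 (adjusted p = 0.291), 2 (0.256) or 3 (0.254) or without CTCFL-OE replicate 2 (0.187) or 3 (0.147), and over all alternatives adjusted p ran from 0.000494 to 0.291. CTCFL-KD and CTCFL-OE did not differ past the threshold (log2 fold change -0.31, SE 0.17, n = 3 a group, adjusted p = 0.184).

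*MAP1B* (ENSG00000131711.15, GRCh38 chr5:72107234-72209565, plus strand) encodes a relative of MAP1A that acts early in axon growth. It was read with 843, 1141 and 978 counts in Control replicates 1 to 3, 239, 317 and 284 in those with overexpression and 34, 92 and 192 in those with knockdown. Scaled, the levels were 42.2, 44.3 and 49.5 CPM for Control replicates 1 to 3, 10.9, 16.6 and 17.5 for those of CTCFL-OE and 3.07, 5.47 and 10.5 for those of CTCFL-KD. Control, CTCFL-OE and CTCFL-KD formed 3 separate steps downward, and within CTCFL-KD the highest library, replicate 3, lay just below the lowest CTCFL-OE library. *MAP1B* fell 3.03-fold in CTCFL-OE (log2 fold change -1.60, SE 0.35, n = 3 a group, adjusted p = 0.0555) and 7.02-fold in CTCFL-KD (log2 fold change -2.81, SE 0.37, n = 3 a group, adjusted p = 0.000245) in edgeR's quasi-likelihood test, Benjamini-Hochberg adjusted. CTCFL-KD was lower than CTCFL-OE as well (log2 fold change -1.21, SE 0.36, n = 3 a group, adjusted p = 0.0285). The fall in CTCFL-KD kept its call whichever library was left out, with log2 fold changes from -3.39 to -2.49, the latter without CTCFL-KD replicate 1. The call in CTCFL-OE was lost without Control replicate 1 (adjusted p = 0.208), 2 (0.199) or 3 (0.254) or without CTCFL-OE replicate 2 (0.208) or 3 (0.162), with a range over all alternatives from 1.38e-13 to 0.254. Against CTCFL-OE the call was lost without CTCFL-OE replicate 2 (0.0873) or 3 (0.0833) or CTCFL-KD replicate 2 (0.0753), in a range from 7.82e-06 to 0.0873. With 1 library left out the log2 fold change against CTCFL-OE ran from -1.78 to -0.89.

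The study's supplement lists sequences of sites matched to a CTCFL motif, and 1 of its 48 sites is at *MAP1B*. The site, CAGGGGGCG, was found at chr5:72107425-72107433 on the plus strand, 50 bases before the start site of the *MAP1B* window, inside the 5′ exon (chr5:72107395-72107715) of 1 *MAP1B* transcript that starts farther upstream. It is printed with the bases around it, with the site in capitals.
MAP1B chr5:72107415-72107443, plus strand: aggggggacgCAGGGGGCGgagcggagac
Read on both strands (CAGGGGGCG or CGCCCCCTG), these 9 letters were in 885 of 35116 promoter windows of the same length (2.52%) and in 2 of the 21 windows of these genes, those of *MAP1B* and *MAP1A*. The shorter run AGGGGGC (or GCCCCCT), which lies inside it and was in 28 of the 48 listed sites, was in 5045 windows (14.4%) and in 6 of the 21, which belong to *MAP1B*, *MAP1A*, *MAP7*, *STMN1* and *TUBB3*. *MAP1A* has 2 windows in the table, and the 9 letters are in the upstream one, at -6654 bases from the canonical start, while the window at the canonical start holds neither run. The upstream window is shown because *MAP1A* was the 1 gene of the 10 to rise in CTCFL-OE while *MAP1B* fell. Capitals mark the 7-letter run on either strand and, where it occurs, the whole 9-letter run.
MAP1A chr15:43510704-43510953, plus strand: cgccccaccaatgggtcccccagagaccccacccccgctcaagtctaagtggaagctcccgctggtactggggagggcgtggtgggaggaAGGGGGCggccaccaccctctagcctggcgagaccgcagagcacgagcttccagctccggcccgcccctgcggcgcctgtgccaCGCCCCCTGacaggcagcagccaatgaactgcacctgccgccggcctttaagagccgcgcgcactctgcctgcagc
A match of letters is a description of the sequence and does not show that CTCFL binds there.

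*MAP7* (ENSG00000135525.18, GRCh38 chr6:136342281-136550819, minus strand) encodes a protein that binds microtubules and recruits the motor kinesin-1, and it is typical of epithelial cells. It had 820, 1076 and 865 counts in Control replicates 1 to 3, 948, 778 and 663 in those with overexpression and 254, 629 and 673 in those with knockdown. Its scaled levels were 41.1, 41.8 and 43.8 CPM for Control replicates 1 to 3, 43.2, 40.7 and 40.7 for those of CTCFL-OE and 22.9, 37.4 and 36.9 for those of CTCFL-KD. CTCFL-OE overlapped Control, and the CTCFL-KD libraries were all below them, replicate 1 by the most. No comparison passed by edgeR's quasi-likelihood test, with adjusted p = 0.961 in CTCFL-OE (log2 fold change -0.02, SE 0.20, n = 3 a group), 0.148 in CTCFL-KD (log2 fold change -0.38, SE 0.20) and 0.199 for CTCFL-KD against CTCFL-OE. Without CTCFL-KD replicate 1 the log2 fold change in CTCFL-KD was -0.18, and in no alternative was the threshold reached.

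*STMN1* (ENSG00000117632.23, GRCh38 chr1:25884181-25906991, minus strand) encodes stathmin, which binds tubulin dimers and is switched off by phosphorylation as cells divide. Its reads came to 2735, 3556 and 2623 counts in Control replicates 1 to 3, 3299, 2076 and 1607 in those with overexpression and 4558, 3016 and 2812 in those with knockdown. Scaled levels were 137, 138 and 133 CPM for Control replicates 1 to 3, 150.5, 108 and 98.8 for those of CTCFL-OE and 411, 179 and 154 for those of CTCFL-KD. The CTCFL-KD libraries were all above all Control and CTCFL-OE libraries, with replicate 1 far above replicates 2 and 3, and CTCFL-OE replicate 1 lay above Control while replicates 2 and 3 lay below it. In CTCFL-KD the log2 fold change against Control was 0.87 (SE 0.33, n = 3 a group) and did not pass (adjusted p = 0.0616). The difference passed without CTCFL-KD replicate 2 (adjusted p = 0.0384) or 3 (0.0215), and in a range over all alternatives adjusted p ran from 0.00848 to 0.159. Without CTCFL-KD replicate 1 the log2 fold change was 0.30 (adjusted p = 0.159), so its size rested on that library. Against CTCFL-OE *STMN1* was 2.08-fold higher in CTCFL-KD and passed (log2 fold change 1.06, SE 0.34, n = 3 a group, adjusted p = 0.0391). Without CTCFL-KD replicate 1 that log2 fold change was 0.48 (adjusted p = 0.0402). The call was lost without Control replicate 1 (0.0605), 2 (0.0614) or 3 (0.0605) or CTCFL-OE replicate 2 (0.127) or 3 (0.121), in a range from 0.000772 to 0.127. In CTCFL-OE the difference from Control was within the spread of the replicates (log2 fold change -0.19, SE 0.33, n = 3 a group, adjusted p = 0.794).

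**Figure D2:**
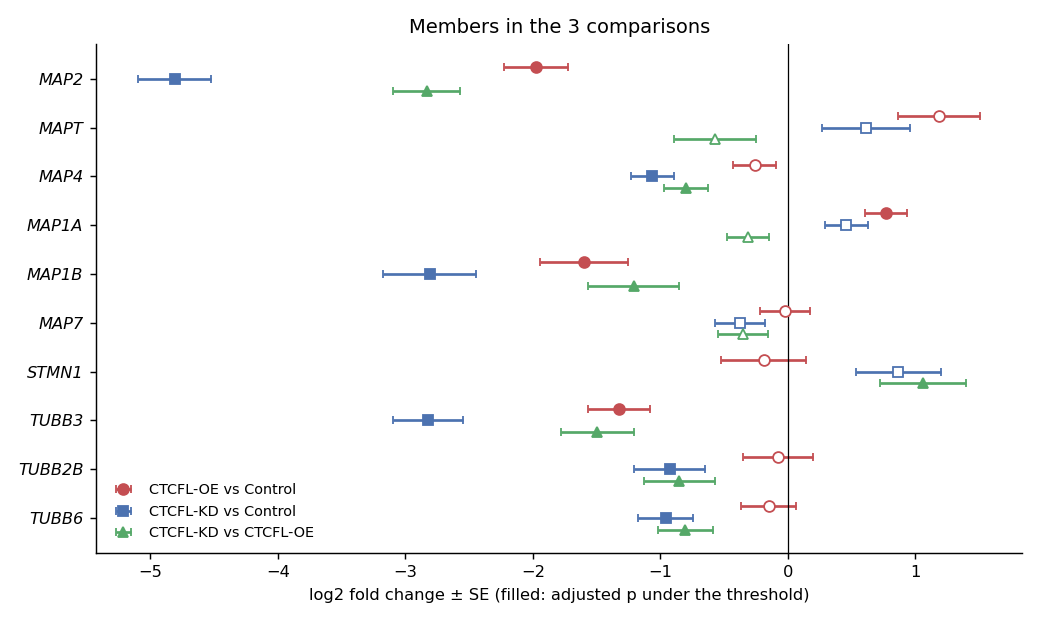
Log2 fold change ± SE of the 10 genes in CTCFL-OE against Control (red circles), CTCFL-KD against Control (blue squares) and CTCFL-KD against CTCFL-OE (green triangles), with filled symbols where the adjusted p was under the threshold. *MAP2* lies farthest from 0 in all 3 comparisons, and *STMN1* is the 1 gene with a filled symbol to the right in CTCFL-KD against CTCFL-OE.

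*TUBB3* (ENSG00000258947.7, GRCh38 chr16:89921392-89938761, plus strand) encodes class III beta-tubulin, the neuronal isotype. Its counts were low, with 118, 150 and 93 counts in Control replicates 1 to 3, 56, 43 and 28 in those with overexpression and 7, 11 and 18 in those with knockdown. In scaled units they were 5.91, 5.83 and 4.71 CPM for Control replicates 1 to 3, 2.55, 2.25 and 1.72 for those of CTCFL-OE and 0.631, 0.654 and 0.986 for those of CTCFL-KD. Each group lay wholly below the one before it, in the order Control, CTCFL-OE, CTCFL-KD. *TUBB3* fell 2.51-fold in CTCFL-OE (log2 fold change -1.33, SE 0.24, n = 3 a group, adjusted p = 0.0290) and 7.07-fold in CTCFL-KD (log2 fold change -2.82, SE 0.28, n = 3 a group, adjusted p = 3.51e-05) in edgeR's quasi-likelihood test, Benjamini-Hochberg adjusted. CTCFL-KD was 2.82-fold below CTCFL-OE (log2 fold change -1.50, SE 0.29, n = 3 a group, adjusted p = 0.00328), and this call and that against Control held whichever library was left out. The call in CTCFL-OE was lost without Control replicate 1 (adjusted p = 0.184), 2 (0.176) or 3 (0.120) or without CTCFL-OE replicate 2 (0.147) or 3 (0.122), in a range over all alternatives from 2.76e-05 to 0.184. A filter asking for 10 counts in every library removed *TUBB3*, which had 7 counts in CTCFL-KD replicate 1. Of all 75-base windows of its reference transcript, 30.4% also occur in another gene's transcripts, 30.3% in the readthrough gene ENSG00000198211 that spans *MC1R* and *TUBB3*, and 2.23% in *TUBB2A*. ENSG00000198211 had 0 counts in all 9 libraries, and the upstream neighbour *MC1R* passed in no comparison (adjusted p = 0.874, 0.0810 and 0.0662). How reads that match both *TUBB3* and the readthrough gene were counted is not stated. The 0 counts therefore do not show whether such reads were left out, and the level of *TUBB3* may be too low.

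The *TUBB3* windows at its canonical start and at an upstream start are shown because *TUBB3* fell in both altered conditions. The upstream window holds the 7-letter run 2 times on the opposite strand, in capitals, and the window at the canonical start holds it nowhere.
TUBB3 upstream chr16:89921675-89921850, plus strand: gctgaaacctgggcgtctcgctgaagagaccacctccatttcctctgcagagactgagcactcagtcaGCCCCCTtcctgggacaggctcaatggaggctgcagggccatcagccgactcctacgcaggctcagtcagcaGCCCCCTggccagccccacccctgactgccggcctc
TUBB3 canonical chr16:89923092-89923337, plus strand: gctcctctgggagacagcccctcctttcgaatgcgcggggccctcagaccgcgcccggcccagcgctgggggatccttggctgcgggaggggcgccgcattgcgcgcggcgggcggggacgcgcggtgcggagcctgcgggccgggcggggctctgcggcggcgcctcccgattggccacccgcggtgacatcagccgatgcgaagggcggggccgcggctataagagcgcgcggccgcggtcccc

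*TUBB2B* (ENSG00000137285.10, GRCh38 chr6:3223324-3231730, minus strand) encodes a class II beta-tubulin that is needed for the migration of cortical neurons. It was well covered, with 2359, 2683 and 2244 counts in Control replicates 1 to 3, 2704, 1891 and 1571 in those with overexpression and 1006, 726 and 785 in those with knockdown. Scaled levels were 118, 104 and 114 CPM for Control replicates 1 to 3, 123, 98.8 and 96.5 for those of CTCFL-OE and 90.7, 43.2 and 43.0 for those of CTCFL-KD. The CTCFL-KD libraries were all below Control and CTCFL-OE, replicate 1 the least so, while CTCFL-OE overlapped Control. *TUBB2B* fell 1.90-fold in CTCFL-KD (log2 fold change -0.93, SE 0.28, n = 3 a group, adjusted p = 0.0222) by edgeR's quasi-likelihood test and was lower than in CTCFL-OE (log2 fold change -0.85, SE 0.28, n = 3 a group, adjusted p = 0.0426). Without CTCFL-KD replicate 1 these log2 fold changes were -1.37 (adjusted p = 2.62e-05) and -1.30 (5.23e-05) in turn. The call against Control was lost without Control replicate 1 (0.0648) or 3 (0.0600) or CTCFL-KD replicate 2 (0.0703) or 3 (0.0685), in a range over all alternatives from 2.62e-05 to 0.0703. The call against CTCFL-OE was lost without any 1 of the other 8 libraries (adjusted p from 0.0640 to 0.123, in a range over all alternatives from 5.23e-05). In CTCFL-OE the difference from Control was within the replicate spread (log2 fold change -0.08, SE 0.27, n = 3 a group, adjusted p = 0.906). Of its 75-base windows, 26.6% occur in another gene's transcripts, 23.9% in the neighbouring isotype *TUBB2A* and 6.74% in the pseudogene *TUBB2BP1*. *TUBB2A* was at 82.2 ± 8.04 CPM in Control, 70.4 ± 8.74 after overexpression and 43.2 ± 22.7 after knockdown, and it fell in CTCFL-KD (log2 fold change -0.93, SE 0.30, n = 3 a group, adjusted p = 0.0312). This call was lost without any 1 Control library (0.0572 to 0.0906) or CTCFL-KD replicate 2 (0.0934) or 3 (0.0880), and by edgeR on the 2 groups compared (0.0773).

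*TUBB6* (ENSG00000176014.13, GRCh38 chr18:12307669-12344320, plus strand) encodes class V beta-tubulin, which is made in many tissues and loosens the microtubule array when abundant. It had 1702, 2186 and 1666 counts in Control replicates 1 to 3, 1921, 1412 and 1100 in those with overexpression and 653, 647 and 619 in those with knockdown. Its scaled levels were 85.2, 84.9 and 84.4 CPM for Control replicates 1 to 3, 87.6, 73.8 and 67.6 for those of CTCFL-OE and 58.9, 38.5 and 33.9 for those of CTCFL-KD. Control libraries were nearly equal, CTCFL-OE libraries lay on both sides of them, and every CTCFL-KD library was below all others. *TUBB6* fell 1.94-fold in CTCFL-KD (log2 fold change -0.96, SE 0.22, n = 3 a group, adjusted p = 0.00576), a call that held whichever library was left out, with log2 fold changes from -1.23 (without CTCFL-KD replicate 1) to -0.81. It was also lower than in CTCFL-OE (log2 fold change -0.81, SE 0.22, n = 3 a group, adjusted p = 0.0190), a call lost without CTCFL-OE replicate 1 (adjusted p = 0.0589) or CTCFL-KD replicate 2 (0.0501) or 3 (0.0609), in a range over all alternatives from 0.000148 to 0.0714. In CTCFL-OE the change from Control did not pass (log2 fold change -0.15, SE 0.21, n = 3 a group, adjusted p = 0.737). No 75-base window of the *TUBB6* transcript, or of the other 7 genes not named above for sharing, occurs in another gene's transcripts.

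**Figure D3:**
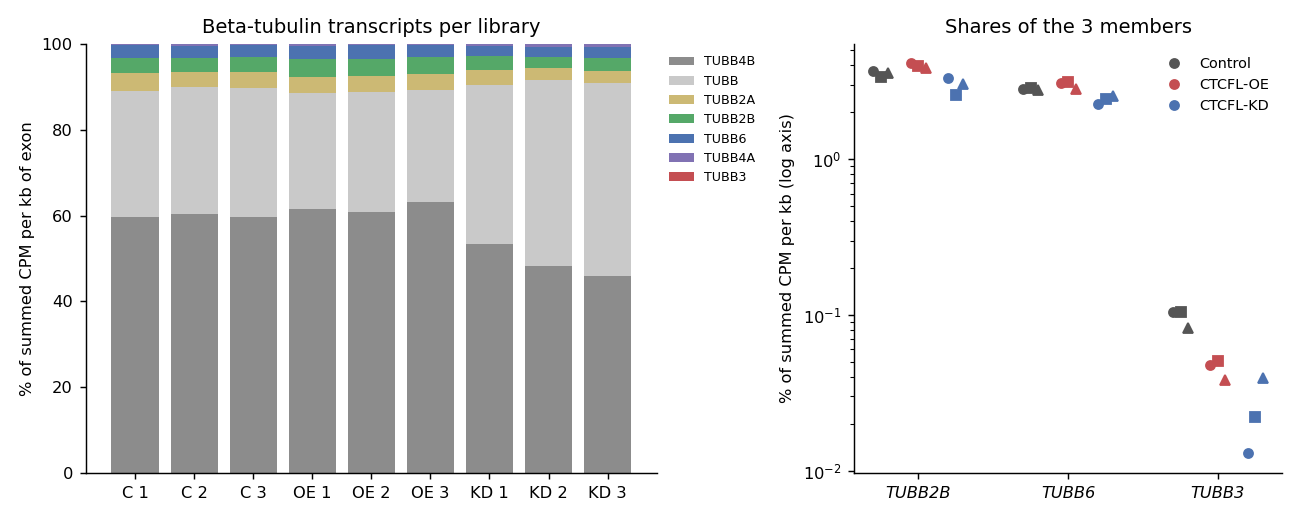
Left, share of each of 7 beta-tubulin isotypes in their summed level per kilobase of exon (percent), for each of the 9 libraries, and right, the shares of *TUBB2B*, *TUBB6* and *TUBB3* on a log axis, where circle, square and triangle are replicates 1, 2 and 3. *TUBB4B* and *TUBB* make up most of the total in every library, and *TUBB3* stays near or below 0.1%.

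Among 7 beta-tubulin isotypes, compared as CPM per kilobase of annotated exon, *TUBB3* made up 0.0970 ± 0.0125% of the summed level in Control, 0.0456 ± 0.00643% after overexpression and 0.0247 ± 0.0134% after knockdown. Its share was lower in every CTCFL-OE library (0.0383% to 0.0506%) than in every Control library (0.0826% to 0.105%), while CTCFL-KD replicate 3 (0.0392%) overlapped CTCFL-OE. *TUBB2B* held 3.53 ± 0.175% in Control, 3.97 ± 0.140% after overexpression and 2.98 ± 0.362% after knockdown. *TUBB6* held 2.83 ± 0.0464%, 3.02 ± 0.159% and 2.41 ± 0.141%. The shares of *TUBB2B* and *TUBB6* were lower in every CTCFL-KD library than in every Control library. Most of the total was *TUBB4B* (59.9 ± 0.449%, 61.8 ± 1.13% and 49.2 ± 3.79% in Control, CTCFL-OE and CTCFL-KD) and *TUBB* (29.7 ± 0.282%, 27.1 ± 0.862% and 41.8 ± 4.15%). These shares are descriptions, with no test. They may also depend on how reads that match several genes were counted, which is not stated and bears on *TUBB3*, *TUBB2B* and *TUBB2A*.

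The 10 genes span a wide range of levels, given here per kilobase of annotated exon. In Control the order from highest was *TUBB2B* (26.9 ± 1.70 CPM per kilobase), *MAP4* (23.97 ± 1.52), *STMN1* (21.8 ± 0.448), *TUBB6* (21.5 ± 0.112), *MAP2* (15.2 ± 0.980), *MAP7* (7.75 ± 0.260), *MAP1B* (3.62 ± 0.300), *TUBB3* (0.739 ± 0.0903), *MAP1A* (0.630 ± 0.0544) and *MAPT* (0.0398 ± 0.0181). Within 1 SD, *TUBB2B* overlapped *MAP4*, *STMN1* overlapped *TUBB6*, and *TUBB3* overlapped *MAP1A*. In CTCFL-OE *MAP2* (3.86 ± 0.180) had moved below *MAP7* (7.63 ± 0.269), *MAP1B* (1.19 ± 0.283) had come within 1 SD of *MAP1A* (1.07 ± 0.0907), and *MAP1A* stood above *TUBB3* (0.293 ± 0.0568). In CTCFL-KD *STMN1* was highest (39.7 ± 22.7) with an SD that reached *TUBB2B* (14.2 ± 6.61), and *MAP1A* (0.865 ± 0.0392) stood above *MAP2* (0.534 ± 0.205) and *MAP1B* (0.506 ± 0.303), which overlapped. *MAPT* was lowest in each of the 3 groups.

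The other genes of the microtubule system were described by 9 lists holding 115 genes, of which 99 were tested. These lists, like the 10 members, were chosen with earlier results of these data known. In CTCFL-OE 2 of the 99 rose and 2 fell (2.02% each), with a median log2 fold change of -0.08, beside 1.99% and 1.16% of all genes tested. Higher and lower in turn, these counts became 0 and 0 without Control replicate 1, 2 or 3, 7 and 5 without CTCFL-OE replicate 1, 1 and 1 without CTCFL-OE replicate 2, 1 and 0 without CTCFL-OE replicate 3, 12 and 14 without CTCFL-KD replicate 1, and 1 and 2 without CTCFL-KD replicate 3. They were 11 and 8 by edgeR and 11 and 9 by DESeq2 on the 2 groups compared, and 1 to 7 and 1 to 3 in the other 9 settings. In CTCFL-KD 9 rose (9.09%) and 28 fell (28.3%), with a median of -0.17, where the shares among all genes tested were 21.4% and 16.8%. There the counts became 4 and 20, 5 and 22, and 4 and 17 without Control replicates 1, 2 and 3, and 14 and 38 without CTCFL-KD replicate 1. They were 7 to 10 and 26 to 28 without another library and 6 to 9 and 25 to 33 in the 11 other settings. Against CTCFL-OE 8 were higher in CTCFL-KD (8.08%) and 20 lower (20.2%), with a median of -0.14, beside 15.3% and 11.5% of all genes tested. These became 5 and 16 without any 1 Control library, 7 and 15, 4 and 11, and 4 and 16 without CTCFL-OE replicates 1, 2 and 3, and 13 and 31, 8 and 18, and 7 and 19 without CTCFL-KD replicates 1, 2 and 3. On the 2 groups compared edgeR gave 4 and 8 and DESeq2 gave 4 and 11. The other 9 settings gave 5 to 10 and 18 to 31. Since the counts of most single lists are small and changed in the same way, medians are given for those lists below. These medians use all 9 libraries, CTCFL-KD replicate 1 among them, and are not given without it. The 4 that passed in CTCFL-OE were *TUBA4A*, an alpha-tubulin, which fell from 466 ± 21.4 to 194 ± 3.43 CPM (log2 fold change -1.27, SE 0.29, n = 3 a group, adjusted p = 0.0633), *EML5*, of the echinoderm microtubule-associated protein family, which fell from 2.00 ± 0.238 to 0.441 ± 0.212 CPM, *MAP7D2*, a relative of *MAP7*, which rose from 2.01 ± 0.348 to 5.26 ± 1.46 CPM, and *BRSK1*, a kinase that phosphorylates tau, which rose from 7.67 ± 0.738 to 14.6 ± 4.22 CPM. Adjusted p in CTCFL-OE was 0.0289 for *EML5*, 0.0284 for *MAP7D2* and 0.0788 for *BRSK1*. All 4 calls were lost without any 1 of the 3 Control libraries (adjusted p from 0.115 to 0.354). The calls of *TUBA4A* and *BRSK1* were also lost without CTCFL-OE replicate 2 (0.260 and 0.315), those of *TUBA4A*, *EML5* and *BRSK1* without CTCFL-OE replicate 3 (0.205, 0.131 and 0.271), and that of *BRSK1* without CTCFL-KD replicate 3 (0.1002) and with a replicate block (0.106).

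Among the tubulins and their partners in CTCFL-KD, 4 of 5 alpha-tubulins tested fell (4 or 5 with 1 library left out, median log2 fold change -1.05), led by *TUBA4A*, which went to 48.0 ± 23.8 CPM (log2 fold change -3.28, SE 0.31, n = 3 a group, adjusted p = 2.99e-05), and including *TUBA1B*, at 484 ± 4.08 CPM in Control and 243 ± 22.7 in CTCFL-KD (log2 fold change -0.997, SE 0.19, n = 3 a group, adjusted p = 0.00213). The 6 other beta-tubulins had a median of -0.59, and *TUBB4B* fell from 930.0 ± 7.06 to 476 ± 213 CPM (log2 fold change -0.97, SE 0.28, n = 3 a group, adjusted p = 0.0206), a call lost without any 1 Control library (adjusted p from 0.0554 to 0.0583) or CTCFL-KD replicate 2 (0.0640) or 3 (0.0616). A list of 11 genes held gamma-tubulin and its ring complex, which nucleate microtubules, with delta- and epsilon-tubulin (*TUBD1* and *TUBE1*). It had a median of -0.31, and *TUBGCP3* fell from 31.1 ± 1.30 to 18.1 ± 4.99 CPM (log2 fold change -0.77, SE 0.21, n = 3 a group, adjusted p = 0.0138). *MZT1* (log2 fold change -0.98, SE 0.28, adjusted p = 0.0179) and *NEDD1* (-0.94, SE 0.31, 0.0319) fell more. The call of *MZT1* was lost without Control replicate 1 or CTCFL-KD replicate 2. That of *NEDD1* was lost without any 1 Control library and by edgeR on the 2 groups compared. The 7 tubulin folding cofactors had a median of 0.37. In CTCFL-KD replicate 1 *TBCA*, *TBCB* and *ARL2* were at 171, 145 and 32.5 CPM. They were at 81.2, 62.9 and 9.04 CPM in replicate 2 and at 78.5, 58.6 and 8.93 in replicate 3, where the Control means were 81.4, 71.5 and 8.55. *TBCC* and *TBCD* were above Control in all 3 CTCFL-KD libraries.

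Of 17 other microtubule-associated and stathmin genes tested, 2 rose and 4 fell in CTCFL-KD (median -0.16), the same counts as with any 1 library left out. *EML5*, which also fell in CTCFL-OE, fell from 2.00 ± 0.238 to 0.0762 ± 0.0661 CPM, a level of very few counts. Its log2 fold change was -4.44 (SE 0.53, n = 3 a group, adjusted p = 0.000138 in edgeR), a call that held in each of the 19 settings in which it was tested. *DCLK2*, a doublecortin-like kinase, rose from 3.98 ± 0.442 to 21.2 ± 3.75 CPM (log2 fold change 2.41, SE 0.31, n = 3 a group, adjusted p = 0.000232), *MAP7D2* rose to 6.11 ± 0.0400 CPM (log2 fold change 1.61, SE 0.25, n = 3 a group, adjusted p = 0.000619), and *MAP7D3* fell from 50.8 ± 2.98 to 22.7 ± 3.21 CPM (log2 fold change -1.16, SE 0.16, n = 3 a group, adjusted p = 0.000357). The 17 genes that act at microtubule ends had a median of -0.57, and *NAV2* fell from 129 ± 5.72 to 52.7 ± 16.1 CPM (log2 fold change -1.29, SE 0.23, n = 3 a group, adjusted p = 0.00152), and *CLIP2* from 20.9 ± 1.40 to 9.15 ± 0.591 CPM (log2 fold change -1.19, SE 0.17, n = 3 a group, adjusted p = 0.000436). Without CTCFL-KD replicate 1 the log2 fold change of *CLIP1*, whose value is that median, was -0.30. In the same setting *CKAP5* went from -0.75 to -0.46, *CAMSAP2* from -0.74 to -0.43 and *NAV1* from 0.29 to 0.44. The 18 genes that modify tubulin had a median of 0.14, and *SIRT2*, a tubulin deacetylase, rose from 31.0 ± 1.31 to 77.0 ± 9.12 CPM (log2 fold change 1.31, SE 0.16, n = 3 a group, adjusted p = 0.000131). The 7 severing genes had a median of -0.62, and *FIGN* fell from 62.0 ± 1.72 to 21.3 ± 9.89 CPM (log2 fold change -1.53, SE 0.31, n = 3 a group, adjusted p = 0.00299). The 11 kinases that act on microtubule-associated proteins had a median of 0.06, and *MARK4* fell from 23.9 ± 0.820 to 16.2 ± 0.806 CPM (adjusted p = 0.0127, and over 0.05 without Control replicate 2 or 3, up to 0.0550). The calls in CTCFL-KD of *TUBA4A*, *TUBA1B*, *TUBGCP3*, *DCLK2*, *MAP7D2*, *MAP7D3*, *NAV2*, *CLIP2*, *SIRT2* and *FIGN* held under all 20 settings.

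In CTCFL-KD against CTCFL-OE 3 of 5 alpha-tubulins were lower (2 to 4 with 1 library left out, median -0.69). The medians of the other lists were -0.29 for the 6 other beta-tubulins, -0.31 for the gamma-tubulin ring genes with *TUBD1* and *TUBE1*, 0.52 for the folding cofactors, -0.14 for the other microtubule-associated genes, -0.53 for the genes of microtubule ends, 0.15 for the tubulin-modifying genes, -0.57 for the severing genes and -0.09 for the kinases. The value for the folding cofactors includes the high CTCFL-KD replicate 1 levels of *TBCA*, *TBCB* and *ARL2*, whose CTCFL-OE means were 66.1, 62.1 and 7.71 CPM. Without that library *CLIP1* went from -0.58 to -0.31, *CKAP5* from -0.78 to -0.49 and *NAV1* from 0.38 to 0.53. *TUBA4A* was 4.05-fold lower in CTCFL-KD than in CTCFL-OE (log2 fold change -2.02, SE 0.29, n = 3 a group, adjusted p = 0.000657), and so were *NAV2* (log2 fold change -1.36, SE 0.23, n = 3 a group, adjusted p = 0.00162) and *MAP7D3* (log2 fold change -0.94, SE 0.16, n = 3 a group, adjusted p = 0.00185), all 3 under each of the 20 settings.

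A list of 15 genes of the mitotic spindle and cell division, also chosen with earlier results known, was read beside the members. In CTCFL-KD 10 of the 15 passed lower (9 to 11 with 1 library left out, median -1.04), beside 16.8% of all genes tested. Against CTCFL-OE 12 did (11 to 13, median -0.99), beside 11.5% of all genes tested. In CTCFL-OE 0 of the 15 passed by edgeR or by DESeq2 on all 9 libraries, and 2 were higher at an unadjusted p under 0.05. In CTCFL-OE 2 were higher without CTCFL-KD replicate 1 (*MKI67* and *NUSAP1*), by edgeR on the 2 groups compared 3 (these and *AURKB*), and by DESeq2 on those groups and with length and GC offsets, with or without the block, 1 (*MKI67*). The summed level of the list was 2052 to 2262 CPM in the Control libraries, 2310 to 2531 after overexpression and 1087 to 1496 after knockdown, with *MKI67* its most abundant gene (306 to 403 CPM in Control). *AURKA*, a spindle kinase, fell from 115 ± 3.52 to 48.0 ± 6.61 CPM in CTCFL-KD (log2 fold change -1.26, SE 0.17, n = 3 a group, adjusted p = 0.000322) and *TTK*, a spindle checkpoint kinase, from 65.8 ± 0.704 to 27.7 ± 3.04 CPM (log2 fold change -1.25, SE 0.17, n = 3 a group, adjusted p = 0.000304). The part of this difference in the fall of *MAP4*, *TUBB2B* and *TUBB6* was not tested.

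Markers of cell types were read beside the neuronal members. Of 12 neuron markers 6 were tested, and their summed level was 59.5 to 61.4 CPM in Control, 43.6 to 47.1 after overexpression and 31.9 to 35.2 after knockdown, most of it from *INA*, an intermediate filament gene (39.1 to 39.6 CPM in Control). *ELAVL4* and *STMN2* had 0 counts in all 9 libraries, and *SNAP25*, *GAP43* and *DCX* had 0 or 1 in each Control library. In CTCFL-OE 1 of the 6 fell, *RBFOX3*, an RNA-binding protein gene, from 8.92 ± 0.693 to 4.19 ± 0.719 CPM (log2 fold change -1.09, SE 0.22, n = 3 a group, adjusted p = 0.0447), a call lost without any 1 Control library (0.176 to 0.242) or CTCFL-OE replicate 2 (0.109) or 3 (0.161). *INA* was at 27.1 ± 1.37 CPM there against 39.4 ± 0.267 in Control and was just over the threshold (log2 fold change -0.54, SE 0.15, n = 3 a group, adjusted p = 0.107), but it passed lower without CTCFL-OE replicate 1 or CTCFL-KD replicate 1 and in 6 of 11 other settings, DESeq2 on all 9 libraries among them. In CTCFL-KD 2 rose and 3 fell (median 0.12), among them *NEFH*, a neurofilament gene, which fell from 10.1 ± 0.0817 to 0.635 ± 0.188 CPM (log2 fold change -4.02, SE 0.25, n = 3 a group, adjusted p = 2.82e-06), and *SYT1*, a synaptic vesicle gene, which rose from 1.53 ± 0.161 to 4.52 ± 1.34 CPM (log2 fold change 1.58, SE 0.27, n = 3 a group, adjusted p = 0.00113). The other gene that rose was *ELAVL3*, from 0.0467 ± 0.0511 to 1.96 ± 0.368 CPM (log2 fold change 5.24, SE 0.58, n = 3 a group, adjusted p = 8.23e-05). Against CTCFL-OE 2 were higher and 1 lower in CTCFL-KD (median 0.46), with 1 higher without CTCFL-OE replicate 2 or CTCFL-KD replicate 3 and 2 lower without CTCFL-KD replicate 1.

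Of 10 fibroblast markers 4 were tested and 2 rose in CTCFL-KD against both other groups, with medians of 1.35 and 1.91. Against CTCFL-OE *COL1A1* was lower without CTCFL-OE replicate 1 or CTCFL-KD replicate 1. It was also lower there with length and GC offsets, with or without the block. *FAP* was higher against CTCFL-OE without CTCFL-OE replicate 1 (adjusted p = 0.0234 in edgeR). Against Control *COL1A1* was lower in CTCFL-KD with those offsets and by DESeq2 on the 2 groups compared. *COL1A2* had 0, 0 and 0 counts in Control replicates 1 to 3, 1, 2 and 0 in those with overexpression and 156, 239 and 247 in those with knockdown. The summed level was 28.0 to 33.8 CPM in Control, 24.99 to 44.2 after overexpression and 37.8 to 43.0 after knockdown, most of it *COL1A1* (26.4 to 32.0 CPM in Control), and *COL3A1* had 0 counts in every Control and CTCFL-OE library. *CD14*, a monocyte marker, had 4, 2 and 2 counts in Control replicates 1 to 3, 3, 8 and 8 in those with overexpression and 34, 22 and 25 in those with knockdown. It rose in CTCFL-KD (log2 fold change 3.84, SE 0.58, n = 3 a group, adjusted p = 0.000571) and was higher there than in CTCFL-OE (log2 fold change 2.44, SE 0.51, n = 3 a group, adjusted p = 0.00531). Both calls held in each of the 19 settings in which it was tested. All 10 markers of serous ovarian cancer lines were tested, and in CTCFL-KD 7 rose and 2 fell (median 1.05) while against CTCFL-OE 6 were higher (median 0.99). In CTCFL-KD 5 rose and 1 fell without Control replicate 1 or 3, 6 and 1 without Control replicate 2, 6 and 2 without any 1 CTCFL-OE library, and 7 and 1 without CTCFL-KD replicate 2 or 3. Against CTCFL-OE 4 were higher without any 1 Control library or CTCFL-OE replicate 1 or 2 and by edgeR on the 2 groups compared, and 7 were higher and 1 lower without CTCFL-KD replicate 1. The sum of the serous markers was 5949 to 6073 CPM in Control, 5017 to 5533 after overexpression and 9929 to 16885 after knockdown, with *KRT8* the most abundant, and *PAX8*, which defines the lineage, had at least 8959 counts in each library. In CTCFL-OE 0 genes passed by edgeR among the fibroblast and serous markers, where 1 and 1 had an unadjusted p under 0.05 and DESeq2 on all 9 libraries called 0 and 1. Of the serous markers 1 was higher and 3 were lower in CTCFL-OE without CTCFL-KD replicate 1 and by either tool on the 2 groups compared, and 1 was lower without CTCFL-OE replicate 1, where 1 fibroblast marker was higher and 1 lower. The part of these markers in the changes of the 10 genes was not tested.

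**Figure D4:**
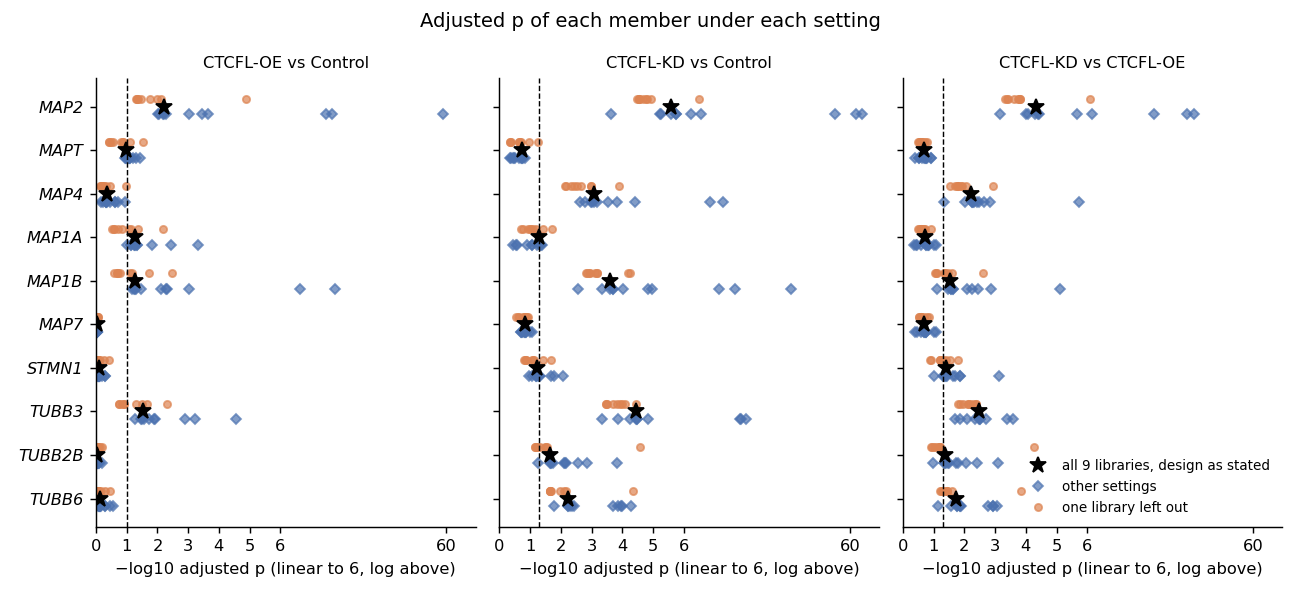
Minus log10 of the adjusted p of each of the 10 genes (linear to 6, log above) in the 3 comparisons, as tested on all 9 libraries (black star), with 1 library left out (orange circles) and under other settings (blue diamonds), where the dashed line is the threshold. *MAP2* is to the right of the line under all 20 settings in all 3 comparisons, while the orange circles of *MAP1A*, *MAP1B* and *TUBB3* lie on both sides in CTCFL-OE.

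How far each call rests on single libraries is shown in the plot of adjusted p by setting. In CTCFL-OE the count of 4 genes became 1 (*MAP2*) without Control replicate 1, 2 or 3 or CTCFL-OE replicate 2 or 3, and the count over all genes tested, 561, became 45, 61 and 44 without Control replicates 1, 2 and 3, 79 and 117 without CTCFL-OE replicates 2 and 3, 2780 without CTCFL-OE replicate 1 and 5040 without CTCFL-KD replicate 1. In CTCFL-KD the count of 6 ranged from 5 to 7 and that over all genes tested, 6800, from 4738 without Control replicate 3 to 9170 without CTCFL-KD replicate 1. In CTCFL-KD against CTCFL-OE the count of 7 became 4 without CTCFL-OE replicate 2 or 3 or CTCFL-KD replicate 2, while without CTCFL-KD replicate 1 the count over all genes tested went from 4771 to 7297. Same-numbered Control and CTCFL-KD libraries varied together across genes, so a term for replicate was added as an alternative, and with this block the call of every 1 of the 10 genes was the same as without it in all 3 comparisons. Over the 9 microtubule lists the block gave 1 gene higher and 2 lower in CTCFL-OE, 6 and 28 in CTCFL-KD and 5 and 23 in CTCFL-KD against CTCFL-OE, and in CTCFL-KD it gave 9 genes of the spindle and cell division lower.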

How the data were processed

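RNA was measured in 9 OVCAR3 libraries, 3 a group, made with TruSeq Stranded mRNA and sequenced in pairs on a NextSeq instrument. The deposited values are raw counts per gene, which the authors made from reads trimmed with Trimmomatic, aligned to GRCh38 and counted with featureCounts. The submitters' notes also list kallisto, and the strand setting, the annotation release and the handling of reads that match several genes are not stated. GENCODE 44 named 60463 of 60660 identifiers, and 37834 had at least 1 count. Genes were filtered with edgeR's filterByExpr, scaled by TMM and tested with edgeR 4.0.16 (quasi-likelihood, robust, condition as the single term, all 9 libraries sharing 1 estimate of spread) in R 4.3.3, with Benjamini-Hochberg adjustment. CPM used TMM library sizes and no prior count. The alternatives were RLE and upper-quartile scaling, DESeq2 1.42.0 on 9 libraries or on the 2 groups compared, edgeR on those 2 groups, no filter, 10 counts in every library, robust off, a replicate block, length and GC offsets (mgcv 1.9.3) with and without that block, and each library left out. The code was tested on simulated data.

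The 10 members and the gene lists were chosen with earlier results of these data known. Besides the members, each list and comparison could give up to 4 named genes, those with the largest log2 fold change among genes that passed, reached a mean of 1 CPM in a group and had no overlap between groups, of which the text names some. *MC1R*, *MAPT-AS1*, *TUBB2A* and *TUBB2BP1* are named as neighbours or near copies of members. Of the marker genes, those given by count alone were chosen after their values were seen. Over 11622 genes with a mean of at least 5 CPM, deviations from the group mean in same-numbered Control and CTCFL-KD libraries correlated across genes (r = 0.384, 0.221 and 0.265, genes not being independent replicates). Unlike-numbered Control and CTCFL-KD libraries gave -0.382 to 0.154. Deviations from a mean of 3 libraries depend on each other, so these values do not settle whether the libraries were paired. Same-numbered Control and CTCFL-OE libraries gave -0.0445, 0.225 and -0.0496. The labels state no pairing. Leaving out a library leaves 2 in its group.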

Additional observations from a re-analysis of the deposited data

How the results depend on the processing

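Over 20 settings (11 choices of processing and 9 that leave out a library) and 30 member values, 597 values were recomputed, of which 527 kept their direction and their side of the threshold, 43 lost a call, 22 gained one and 5 changed sign. The sign changes were all of *MAP7* in CTCFL-OE, which passed in no setting: its log2 fold change was 0.030 with upper-quartile scaling, 0.017 with edgeR on the 2 groups compared, 0.020 with length and GC offsets, 0.021 with offsets and replicate block, and -0.061 to 0.0070 with a library left out. Genes passing in CTCFL-OE numbered 1373 by DESeq2 on all 9 libraries, 3775 by DESeq2 and 3450 by edgeR on the 2 groups compared, 1517 with no low-count filter, 1593 with length and GC offsets, 1455 with offsets and block, and 44 to 5040 with a library left out, against 561. The cause was not tested. Members passing there numbered 1 to 5 with a library left out. In CTCFL-KD against CTCFL-OE, edgeR on the 2 groups compared gave 2668 genes and 3 members, and leaving out a library gave 3181 to 7297 genes and 4 to 7 members. That fit lost *MAP1B* (adjusted p = 0.0788), *STMN1* (0.0983), *TUBB2B* (0.107) and *TUBB6* (0.0714) there and *TUBB2B* against Control (0.0563), where *MAP1A* passed (0.0483). *STMN1* passed against Control by DESeq2 on all 9 libraries (0.0465), with no filter (0.00848) and with offsets (0.0207, and 0.0165 with the block). The replicate block changed no member's call. The rule for named genes gave 83 calls outside the 10 members, among them genes that the text leaves out. Of these calls, 53 held under every setting run. Depth limits *MAPT*, *TUBB3* and *CTCFL*, whose counts were at most 36, 150 and 72 in a library, and the spread rests on 3 libraries a group.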
